A study of Mus musculus with 8 samples.

Results

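The transcripts of the adenosine pathway and of the surface of regulatory T (Treg) cells that were followed across genotype and stimulation are Nt5e, Entpd1, Adora2a, Dpp4, Izumo1r and Nrp1. They were taken by gene symbol, 6 of 52459 genes listed, and all 6 were among the 15419 genes that averaged 10 normalized counts or more, the genes that entered the test. A normalized count is the number of reads on a gene divided by 1 size factor for the library. The study compared Foxp3+CD25+ Treg cells of C57BL/6 mice that carry or lack store-operated Ca2+ entry, in 4 groups of 2 RNA-sequencing libraries. WT cells were sorted as CD4+CD25hi and negative for YFPcre, a gate without positive selection for Foxp3. The other genotype, labelled as Stim1 fl/f and Stim2 fl/fll together with Foxp3-YFPcre, short name DKO, was sorted as CD4+CD25hi and positive for YFPcre. According to the methods, both came from female mice with floxed Stim1 and Stim2 that were heterozygous for the X-linked Foxp3-YFPcre allele, so that WT and DKO-labelled cells developed in the same kind of animal, and WT cells differ from the others also in not expressing that allele. Cre is driven by the Foxp3 promoter, and each sample pooled spleen and lymph node cells of 12 to 14 mice, whose age is not given in the sources used here. Cells of each genotype were either left unstimulated or kept for 16 h with 1 µg/ml of plate-bound antibodies to CD3 and CD28. Replicate numbers run 3 and 4 for unstimulated WT and 1 and 2 elsewhere.

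CD39, encoded by Entpd1, removes phosphates from extracellular ATP and ADP, and CD73, encoded by Nt5e, turns the resulting AMP into adenosine. Adenosine acts on T cells mainly through the A2A receptor, which raises cAMP and dampens activation, and both enzymes are known from the surface of mouse Treg cells as part of their suppressive equipment. CD26, encoded by Dpp4, is a peptidase that trims chemokines and other peptides, folate receptor 4, encoded by Izumo1r, is a surface marker of Treg cells, and neuropilin-1, encoded by Nrp1, is a co-receptor for semaphorins and VEGF that marks Treg cells made in the thymus. STIM1 and STIM2 open the Ca2+ channel of the plasma membrane when the stores of the endoplasmic reticulum empty, and the Ca2+ that enters activates calcineurin and with it NFAT, whose binding sites share the core GGAAA.

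Among the members, 2, Nt5e and Izumo1r, were called lower in unstimulated DKO-labelled libraries. Nrp1 lay below WT without overlap in both states and Entpd1 only after stimulation, neither of them called in limma. Dpp4 did not differ detectably between the genotypes. The sequences before the transcription starts are shown for these reasons. Each is the 250 bases before a RefSeq start on GRCm38.p6, 5′ to 3′ on the strand of the gene, with matches to GGAAA or its reverse complement TTTCC in capitals. Promoters were found for 5 of the 6 members, and Adora2a had no entry.
Nt5e, chr9:88327359-88327608, plus strand: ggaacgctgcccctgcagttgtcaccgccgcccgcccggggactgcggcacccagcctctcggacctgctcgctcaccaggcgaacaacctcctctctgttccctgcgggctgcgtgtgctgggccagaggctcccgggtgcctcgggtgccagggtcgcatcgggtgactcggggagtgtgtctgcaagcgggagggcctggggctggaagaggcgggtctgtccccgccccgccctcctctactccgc
Izumo1r, chr9:14903768-14904017, minus strand: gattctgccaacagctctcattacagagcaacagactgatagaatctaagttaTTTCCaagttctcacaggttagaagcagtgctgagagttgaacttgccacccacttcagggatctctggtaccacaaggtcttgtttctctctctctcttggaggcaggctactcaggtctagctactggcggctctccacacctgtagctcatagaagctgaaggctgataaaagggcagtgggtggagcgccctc
Nrp1, chr8:128358823-128359072, plus strand: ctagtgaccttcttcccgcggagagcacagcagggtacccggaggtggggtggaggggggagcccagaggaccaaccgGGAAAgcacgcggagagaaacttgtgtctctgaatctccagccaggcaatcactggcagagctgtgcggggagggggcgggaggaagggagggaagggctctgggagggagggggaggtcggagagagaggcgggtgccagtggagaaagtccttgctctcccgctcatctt
Entpd1, the downstream of its 2 starts, chr19:40659520-40659769, plus strand: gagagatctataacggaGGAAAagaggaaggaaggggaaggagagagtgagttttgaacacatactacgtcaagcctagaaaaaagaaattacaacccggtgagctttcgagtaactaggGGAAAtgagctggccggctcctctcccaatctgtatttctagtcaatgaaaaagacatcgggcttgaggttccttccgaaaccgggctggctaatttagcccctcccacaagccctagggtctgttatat
Dpp4, chr2:62412232-62412481, minus strand: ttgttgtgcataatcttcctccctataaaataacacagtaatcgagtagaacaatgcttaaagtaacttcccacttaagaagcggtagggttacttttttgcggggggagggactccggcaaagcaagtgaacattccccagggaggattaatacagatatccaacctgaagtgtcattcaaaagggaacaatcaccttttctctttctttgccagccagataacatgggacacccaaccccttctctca

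The NFAT core was found 0 times in the window of Nt5e, which was 72.0% G and C and held 4 copies of the GC box GGGCGG on either strand. It was found 1 time in the window of Izumo1r, 197 bases before the start on the opposite strand, and 1 time in that of Nrp1, 172 bases before the start. The downstream start of Entpd1 had 2 matches, 233 and 130 bases before it, whereas the upstream start, chr19:40612116-40612365, had 0, as did Dpp4. Both starts of Entpd1 held 1 copy of TGACG on either strand, the core of the cAMP response element. Of 32851 promoter windows of this length, 55.6% held at least 1 NFAT core, 21.4% at least 2, 32.7% a GC box and 17.8% TGACG, while the forkhead site GTAAACA, present in 3.17% of windows, was in none of those of the members. The matches are a description of the letters and no evidence of binding.

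Nt5e lies on chromosome 9 from 88327609 to 88372089, Entpd1 on chromosome 19 from 40612366 to 40741602, Adora2a on chromosome 10 from 75316877 to 75334792, Dpp4 on chromosome 2 from 62330073 to 62412315, Izumo1r on chromosome 9 from 14885814 to 14903951 and Nrp1 on chromosome 8 from 128358591 to 128505476, all on GRCm38.p6. For Dpp4, Izumo1r, Nrp1 and the sequence shown for Entpd1, the start used for the promoter lies inside this span, which covers all annotated transcripts. The genes annotated within Entpd1 that the files list, Gm16027 and Gm8783, did not exceed 1.05 normalized counts in any library, and Mir1903 within Nrp1 was at 0.

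Libraries held 11851853 to 16306540 reads on genes, and a single read was worth 0.759 to 1.48 normalized counts. Neither Stim1 nor Stim2 was called lower in the DKO-labelled libraries: unstimulated WT libraries held 1139 and 1377 normalized counts of Stim1, against 1538 and 1868 in DKO-labelled ones (log2 fold change 0.44, standard error [SE] 0.20, adjusted p = 0.236 in limma), and Stim2 was at 906 and 908 against 904 and 744 (log2 fold change -0.15, SE 0.20, adjusted p = 0.721 in limma). After stimulation the log2 fold changes were -0.15 (adjusted p = 0.807 in limma) and -0.13 (adjusted p = 0.827 in limma). Gene counts include exons outside a floxed region, and whether this has a part in these values was not tested. Directions below are those of the labels. The T cell marker Cd3e lay between 2508 and 3424 in the 8 libraries. The summed level of 8 Treg cell markers was 96058 and 89150 in unstimulated WT libraries and 43458 and 50496 in DKO-labelled ones, and 97021 to 114983 against 70117.5 to 88175 after stimulation. In unstimulated cells all 8 were lower, 6 of them without overlap, against 27.1% of all genes apart in that direction. Of the 8, 2 were called lower, Ikzf2 and Ctla4, against 3.35% of all genes. The median log2 fold change of the 8 was -0.51 in unstimulated and -0.15 in stimulated cells. Ikzf2 alone held 18953 and 19707 of the unstimulated WT sums and 8398 and 9233 of the DKO-labelled ones. The summed level of 12 macrophage markers was 196 to 203 in unstimulated WT libraries, 11715 and 1613 in DKO-labelled replicates 1 and 2, and 61.6 to 156 in all 4 stimulated libraries. The summed level of 10 B cell markers was 352 to 383 in unstimulated WT, 3805 and 924 in DKO-labelled replicates 1 and 2, and 234 to 1646 after stimulation. Neutrophil and monocyte markers summed to 137 to 181 in unstimulated WT and 510 to 1224 in DKO-labelled libraries. Of these markers, 5 of 5 tested were higher and 1, Lyz2, was called, where 1.38% of all genes were called higher. NK and CD8 T cell markers summed to 273 to 328 against 296 to 865, with 4 of 5 tested higher and 0 called in limma. In the sums of macrophage, of B cell and of neutrophil and monocyte markers, both unstimulated DKO-labelled libraries lay above WT. Replicate 1 did so more than replicate 2, although the sort was for CD4. In such bulk samples, fewer cells that express a gene and less RNA of it per cell cannot be told apart.

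In unstimulated cells, Nt5e and Izumo1r were lower in DKO-labelled libraries than in WT, by 1.81-fold and 2.25-fold. The summed Treg cell markers were lower in the same libraries, and whether this has a part in the differences of the members was not tested. Nt5e and Izumo1r were 2 of 6 members called lower and 0 called higher, where the shares over all genes were 3.35% lower and 1.38% higher. Calls required both an adjusted p below 0.05 in limma and a difference above 1.5-fold. Without the adjustment, 4 of 6 members and 22% of all genes had a p under 0.05. The libraries of the genotypes did not overlap for 4 members, Nt5e, Adora2a, Izumo1r and Nrp1, all of them lower, against 27.1% of all genes apart in that direction. The median log2 fold change of the 6 was -0.79, and that of all genes -0.01.

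After stimulation, 0 of 6 members were called, where 0.11% of all genes were called lower and 0.162% higher, and 4 of 6 had an unadjusted p under 0.05 in limma, against 13.7% of all genes. With edgeR 0 members were called and with DESeq2 1, which was Entpd1. The DKO-labelled libraries lay below both WT libraries for 5 members, all but Dpp4, against 23.1% of all genes, and the median log2 fold change was -0.67 (all genes 0.02). The difference between the 2 genotype effects was tested as an interaction, which limma called for 0 of 6 members and 0 of all genes (DESeq2 called 13 genes lower and 37 higher, edgeR 0). Of the members 0 had an unadjusted p under 0.05, against 8.15% of all genes, and edgeR and DESeq2 likewise called 0 members. Each p measures the spread between libraries that are pools of mice, with 2 libraries a group.

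**Figure D1:**
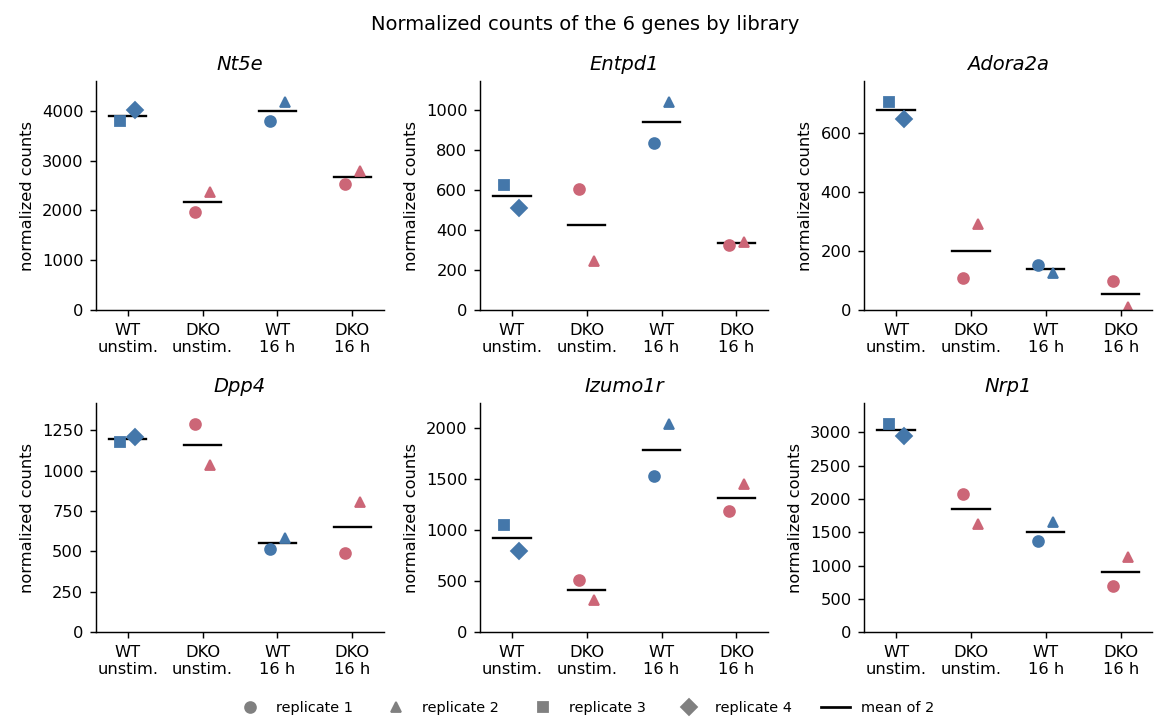
Normalized counts (linear axes from 0) of the 6 members in each of the 8 libraries, WT in blue and DKO-labelled in red, with the mean of the 2 libraries of a group as a bar. Nt5e is at 3793 to 4178 in the 4 WT libraries, and no DKO-labelled library exceeds 2800.4, while Dpp4 overlaps between the genotypes.

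**Figure D2:**
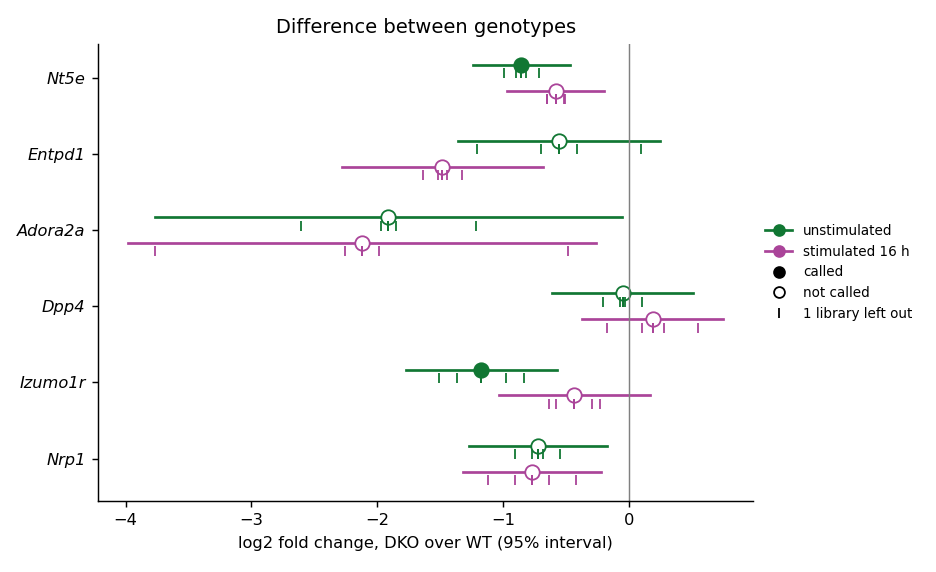
Log2 fold change of DKO-labelled over WT libraries for each member in unstimulated (green) and stimulated (purple) cells, with the 95% interval of limma. Filled circles were called, and ticks are the values with 1 library left out, which for Entpd1 in unstimulated cells run from -1.20 to 0.10.

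Entpd1, the enzyme that breaks down ATP, overlapped between the genotypes before stimulation and not after it. In unstimulated WT libraries it was at 623 and 511 normalized counts, and in DKO-labelled ones at 603 and 244. The groups overlapped, since DKO-labelled replicate 1 lay between the WT libraries and replicate 2 was at less than either. The means were 567 ± 78.9 and 424 ± 254 (SD, n = 2 each), with a log2 fold change of -0.55 (SE 0.36, adjusted p = 0.405 in limma). Replicate 1, the higher, is also the library with 11715 normalized counts of macrophage markers and 3805 of B cell markers, cell types that can carry CD39, and replicate 2 has 1613 and 924. Against WT, 9 of the 12 macrophage markers were called higher in limma, where 1.38% of all genes were called higher. The part of these cells in the level of Entpd1 was not tested. Without DKO-labelled replicate 1 the log2 fold change was -1.20 and was called, and without replicate 2 it was 0.10.

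In stimulated cells, Entpd1 was at 835 and 1039 normalized counts in WT libraries and at 326 and 341 in DKO-labelled ones. Both DKO-labelled libraries lay far below both WT libraries and close to each other, with means of 937 ± 144 and 333 ± 10.97 (SD, n = 2 each). This 2.79-fold difference (log2 fold change -1.48, SE 0.36) did not pass the correction in limma (adjusted p = 0.106), and in DESeq2 it did (adjusted p = 0.00300, the lowest of 10 alternatives, which ranged up to 0.215). Limma called it without either unstimulated DKO-labelled library, and in no other fit that left out 1 library. Those libraries enter here only through the shared spread. Macrophage markers summed to at most 156 in the 4 stimulated libraries, with Mrc1, the mannose receptor, at 0 in each. B cell markers were at 1106 and 234 in the WT and at 1646 and 350 in the DKO-labelled replicates 1 and 2, and their part was not tested. The test of the difference between the states gave a log2 difference of -0.93 (SE 0.51, adjusted p = 0.648 in limma), which was -1.58 and called without unstimulated DKO-labelled replicate 2 and -0.28 without replicate 1.

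**Figure D3:**
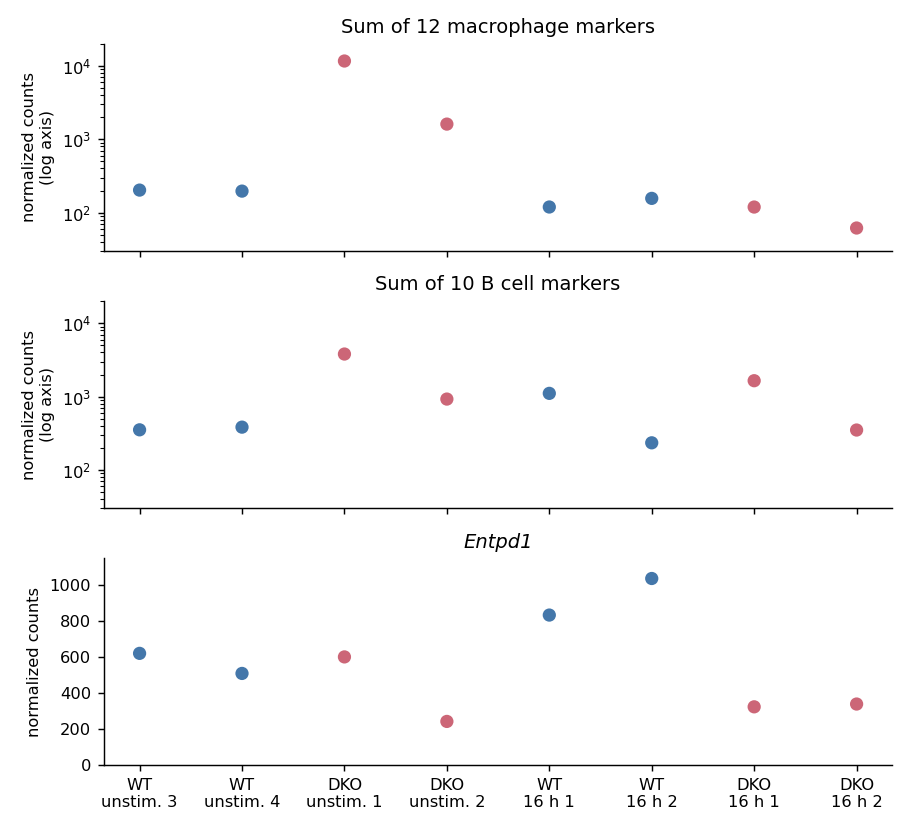
Summed normalized counts of 12 macrophage markers and of 10 B cell markers (log axes) and normalized counts of Entpd1 (linear axis from 0) in the 8 libraries, WT in blue and DKO-labelled in red. Unstimulated DKO-labelled replicate 1 is the highest library for both marker sums, and Entpd1 in it, at 603, is above the 244 of replicate 2.

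Nt5e, which makes adenosine from AMP, had the smallest standard error of the 6 members. Before stimulation it was at 3793 and 4008 normalized counts in WT and at 1959.8 and 2373 in DKO-labelled libraries. All DKO-labelled values lay below all WT values, and the means were 3900.4 ± 152 and 2167 ± 292 (SD, n = 2 each). The log2 fold change was -0.85 with an SE of 0.17 (adjusted p = 0.0264 in limma). Its size ran from -0.99 to -0.72 over the 8 fits that left out 1 library, and the call was lost without either unstimulated or either stimulated WT library. After stimulation the counts were 3799 and 4178 in WT and 2535 and 2800.4 in DKO-labelled libraries. The groups again did not overlap, but the log2 fold change of -0.58 (SE 0.17) was not called (adjusted p = 0.165 in limma). The 2 effects differed by 0.27 on the log2 scale (95% interval -0.27 to 0.82, adjusted p = 0.783 in limma). Across the 4 groups, the 2 WT groups came first and could not be ordered, followed by stimulated and then unstimulated DKO-labelled cells, which did not differ by the test either.

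Adora2a, the receptor through which T cells sense adenosine, differed between libraries of 1 group more than any other member. Unstimulated WT libraries had 706 and 648 normalized counts, and DKO-labelled ones 110.1 and 291. All 4 values were apart by genotype, yet the DKO-labelled replicates differed 2.64-fold. The log2 fold change was -1.91 (SE 0.84, adjusted p = 0.215 in limma), and leaving out 1 library at a time gave -2.61 to -1.21. Without stimulated DKO-labelled replicate 1 or 2, libraries that enter here through the shared spread, the value was called (adjusted p = 0.0319 and 0.0305 in limma). After stimulation the counts were 153 and 126 in WT and 99.3 and 9.29 in DKO-labelled libraries, the last from 11 reads. The log2 fold change of -2.12 (SE 0.84, adjusted p = 0.286 in limma) rests on that library: without DKO-labelled replicate 2 it was -0.48, and without replicate 1 it was -3.76 and called.

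Izumo1r, which encodes folate receptor 4, was at 1049 and 799 normalized counts in unstimulated WT libraries and at 514 and 321 in DKO-labelled ones. The genotypes did not overlap, with means of 924 ± 177 and 417 ± 137 (SD, n = 2 each). The log2 fold change was -1.17 (SE 0.27, adjusted p = 0.0397 in limma), and over the fits without 1 library it ran from -1.51 to -0.83. The call was lost without DKO-labelled replicate 2 of the unstimulated cells and without any 1 of the 4 WT libraries. In stimulated cells the counts were 1536 and 2044 in WT and 1190.3 and 1451 in DKO-labelled libraries. These too did not overlap, with the higher DKO-labelled library close to the lower WT library, and the log2 fold change of -0.43 (SE 0.27) was not called (adjusted p = 0.534 in limma). The effect of genotype was nearer to 0 by 0.74 on the log2 scale after stimulation, a difference whose 95% interval ran from -0.11 to 1.59 (adjusted p = 0.638 in limma).

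Nrp1, the neuropilin of thymus-derived Treg cells, was at 3124 and 2948 normalized counts in unstimulated WT cells and at 2078 and 1625 in DKO-labelled ones. After stimulation it had 1368 and 1649 in WT and 690.05 and 1126 in DKO-labelled libraries. In both states every DKO-labelled library lay below every WT library. The log2 fold changes were -0.72 (SE 0.25, adjusted p = 0.122 in limma) and -0.77 (SE 0.25, adjusted p = 0.190 in limma), and neither was called. Their difference was -0.04 with a 95% interval of -0.82 to 0.73. Macrophages and dendritic cells can express Nrp1, and the library with the most macrophage markers, unstimulated DKO-labelled replicate 1, had the higher of the 2 values. Dendritic cell markers summed to 597 to 708 in unstimulated WT, 1576 in that library and 761 in replicate 2, and the part of either cell type was not tested. Without it the log2 fold change was -0.90. In stimulated cells the value was -0.41 without DKO-labelled replicate 1 and -1.12 without replicate 2.

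Dpp4, the peptidase CD26, did not follow the other members. It was at 1179.5 and 1209.8 normalized counts in unstimulated WT libraries and at 1289 and 1035 in DKO-labelled ones, so that the WT values lay inside the range of the others. After stimulation it was at 518 and 585 in WT and at 489 and 809 in DKO-labelled libraries, which overlapped in the same way. The log2 fold changes were -0.05 (95% interval -0.61 to 0.51, adjusted p = 0.937 in limma) and 0.19 (95% interval -0.37 to 0.75, adjusted p = 0.800 in limma). With equal totals the first was 0.072 and with equal upper quartiles 0.11. The intervals leave room for a DKO-labelled level of 0.655 to 1.43 times that of WT in unstimulated cells.

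Between unstimulated and stimulated libraries 3 members differed in each genotype by the test, and they were Dpp4, Izumo1r and Nrp1 both times. In WT cells 2 of 6 were called lower and 1 higher, where 13.1% of all genes were called lower and 10.2% higher. In DKO-labelled cells 2 were called lower and 1 higher, where 12% of all genes were called lower and 13% higher. The stimulated and unstimulated libraries did not overlap for 3 members lower and 2 higher in each genotype, against 36% and 35% of all genes in WT and 30.6% and 30.8% in DKO-labelled cells. The unstimulated and the stimulated libraries were sequenced on different lanes, and no time in culture is given for the unstimulated cells. The effects of stimulation, of time in culture and of lane therefore cannot be told apart. These comparisons use the same libraries as those between genotypes. The values also depend on the scale: when libraries were set to equal totals, the median of all genes moved by 0.51 in WT and 0.38 in DKO-labelled cells on the log2 scale, and Dpp4 and Nrp1 were no longer called.

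Izumo1r averaged 924 ± 177 normalized counts in unstimulated and 1790.1 ± 359 in stimulated WT libraries, and 417 ± 137 and 1321 ± 185 in DKO-labelled ones (SD, n = 2 each). All stimulated values lay above all unstimulated values of the same genotype. The log2 fold changes were 0.95 (SE 0.27, adjusted p = 0.0294 in limma) and 1.69 (SE 0.27, adjusted p = 0.00235 in limma), and with equal totals they were 1.47 and 2.08 and called. In DKO-labelled cells the call held in all 10 alternatives tried and without each of the 8 libraries.

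Dpp4 fell with stimulation by 1.12 on the log2 scale in WT (SE 0.25, adjusted p = 0.0122 in limma) and by 0.88 in DKO-labelled cells (SE 0.25, adjusted p = 0.0297 in limma). Nrp1 fell by 1.01 (SE 0.25, adjusted p = 0.0162 in limma) and by 1.06 (SE 0.25, adjusted p = 0.0124 in limma). With equal totals the log2 fold changes were -0.60 and -0.49 for Dpp4 and -0.49 and -0.67 for Nrp1. The stimulated and unstimulated values of both genes did not overlap in either genotype. In WT the calls of Dpp4, Nrp1 and Izumo1r were lost without any 1 of the 4 WT libraries. In DKO-labelled cells that of Nrp1 was lost without stimulated replicate 1, and that of Dpp4 held in 2 of the 8 fits, without replicate 2 of either state. In DKO-labelled cells all 12 macrophage markers were also called lower after stimulation, where 12% of all genes were called lower. The part of these markers in the differences of Dpp4 and Nrp1 was not tested.

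Adora2a, whose product is the adenosine sensor, was lower in stimulated libraries of both genotypes without overlap, with log2 fold changes of -2.28 in WT (SE 0.84, adjusted p = 0.0738 in limma) and -2.49 in DKO-labelled cells (SE 0.84, adjusted p = 0.0525 in limma), neither of which was called. The first was called in 2 of 9 alternatives, with a pseudocount of 5 and with the 4 libraries alone, and its adjusted p ranged from 8.4e-05 to 0.138. The second was called in 4 of 10, with a pseudocount of 5, a mean of at least 100, equal upper quartiles or a term for the replicate number, and its adjusted p ranged from 0.0261 to 0.191. It was -0.85 without stimulated DKO-labelled replicate 2 and -4.13 and called without replicate 1. Nt5e was at a log2 fold change of 0.03 in WT (95% interval -0.36 to 0.42) and 0.31 in DKO-labelled cells (95% interval -0.08 to 0.69). With equal totals these were 0.55, below 1.5-fold, and 0.70, which was called (adjusted p = 0.00975 in limma, where the 10 alternatives ranged up to 0.432). Entpd1 was at 0.72 in WT (SE 0.36, adjusted p = 0.171 in limma), where both stimulated libraries exceeded both unstimulated ones. It was called with equal totals (1.24), with the 4 libraries alone and without either unstimulated DKO-labelled library, and its adjusted p ranged from 0.0117 to 0.279 over the 9 alternatives. Entpd1 was at -0.20 in DKO-labelled cells (SE 0.36, adjusted p = 0.707 in limma), where they overlapped. For Entpd1 in DKO-labelled cells 1 library sets the sign: the value was 0.45 without unstimulated replicate 1 and -0.85, and called, without replicate 2.

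**Figure D4:**
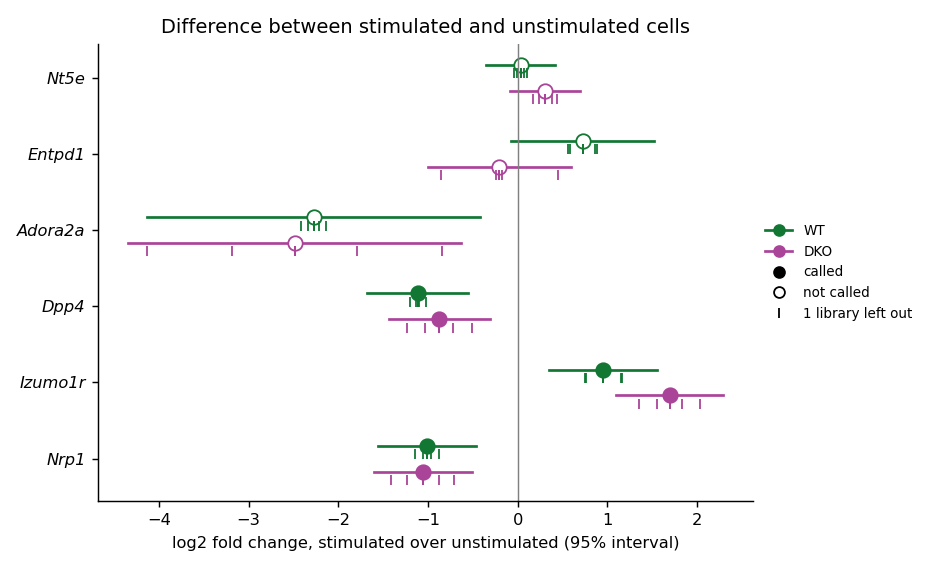
Log2 fold change of stimulated over unstimulated libraries for each member in WT (green) and DKO-labelled (purple) cells, with the 95% interval of limma, filled circles for called values and ticks for fits with 1 library left out. Izumo1r lies to the right of 0 and Dpp4 and Nrp1 to the left in both genotypes, on the deposited scale.

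Around the members, 1 other enzyme of extracellular nucleotides was called between genotypes, Alpl, the tissue-nonspecific alkaline phosphatase. Of 11 such enzymes 6 were tested, and in unstimulated cells 2 were called lower, Nt5e and Alpl, and 0 higher, with a median log2 fold change of -0.65. Over all genes 3.35% were called lower and 1.38% higher, with a median of -0.01. Of the 4 tested enzymes that are not members, 1 was called lower. These 4 had a median of -0.34, with 2 values below 0 and 2 above. Alpl had 117 and 84.2 normalized counts in WT and 31.5 and 12.02 in DKO-labelled libraries, a log2 fold change of -2.28 (SE 0.45, adjusted p = 0.0236 in limma). In stimulated cells 0 of the 6 were called, and the 6 had values below 0 with a median of -0.78. The other adenosine receptors gave little signal: Adora1 was at 0 in all libraries, Adora3 had at most 6 normalized counts, and Adora2b, the low-affinity receptor, had 5 to 26. Of 18 genes of adenosine uptake and breakdown 13 were tested, and limma called 0 between genotypes in either state, with medians of -0.31 and -0.05. Of 13 genes of ATP receptors and ATP release 9 were tested, and 1, P2ry13, an ADP receptor of myeloid cells, was called higher in unstimulated DKO-labelled libraries (adjusted p = 0.0333 in limma). It had 0 and 1.48 normalized counts in WT, under the floor of 3 reads, and 120 and 24.0 in DKO-labelled replicates 1 and 2, in the order of the macrophage markers.

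Of 5 folate receptors and carriers 2 were tested, Izumo1r and Slc19a1, the reduced folate carrier, and both were called lower in unstimulated DKO-labelled libraries. Izumo1r is a member, so the list adds 1 gene, and 3.35% of all genes were called lower. Slc19a1 had 99.3 and 96.0 normalized counts in WT and 51.4 and 32.1 in DKO-labelled libraries, a log2 fold change of -1.25 (SE 0.30, adjusted p = 0.0465 in limma). With stimulation both genes were called higher in both genotypes, Slc19a1 by 2.07 in WT (adjusted p = 0.00206 in limma) and 2.94 in DKO-labelled cells (adjusted p = 0.000367 in limma) on the log2 scale. Over all genes 10.2% were called higher with stimulation in WT and 13% in DKO-labelled cells. The other folate receptors, Folr1 and Folr2, were at or near 0. Of 8 peptidases of the DPP4 family 6 were tested, 0 were called between genotypes by limma, and Dpp4 alone was called with stimulation.

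Of 31 neuropilins, plexins, semaphorins and VEGF genes 20 were tested, and in unstimulated DKO-labelled libraries 2 were called lower and 1 higher, with a median log2 fold change of -0.51. Over all genes 3.35% were called lower and 1.38% higher, with a median of -0.01. The genes of the list named here were picked after their values were seen. Plxnd1, a semaphorin receptor, had 436 and 378 normalized counts in WT and 168 and 160.3 in DKO-labelled libraries (log2 fold change -1.30, adjusted p = 0.0199 in limma). Sema4b had 1857 and 1691 against 747 and 493 (log2 fold change -1.55, adjusted p = 0.0105 in limma), and Sema4a, a semaphorin known to bind neuropilin-1, had 72.3 and 75.3 against 245 and 211 (log2 fold change 1.61, adjusted p = 0.0370 in limma). Nrp2, the other neuropilin, was at 222 and 247 against 232 and 528 and was not called (log2 fold change 0.58, adjusted p = 0.434 in limma).

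The genes whose log2 levels followed each member most closely over the 8 libraries are given as a description, and the points share genotype, stimulation and library. For Nt5e they were Ikzf2, which encodes the Treg transcription factor Helios (Pearson r = 0.985 over 8 libraries), Slc41a1 (0.984) and Bmpr1a (0.974). Ikzf2 was at 18953 and 19707 normalized counts in unstimulated WT and 8398 and 9233 in DKO-labelled libraries, and was called lower (log2 fold change -1.13, adjusted p = 0.0142 in limma). For Entpd1 they were Cd200r1 (0.968), 4933404O12Rik (0.964) and Sept8 (0.961), and for Adora2a Ypel4 (0.992), Gm14681 (0.983) and Farp1 (0.981). For Dpp4 they were Ier5 (0.994), Traf3ip2 (0.991) and Cmpk2 (0.991). For Izumo1r they were Etfb (0.990), Pfdn6 (0.990) and Hras (0.988), and for Nrp1 Map3k4 (0.992), Stom (0.990) and Serinc5 (0.977).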

How the data were processed

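Treg cell RNA gave 8 libraries in 4 groups of 2. Per the methods, the authors aligned single 50-nucleotide reads to NCBIM37 with Bowtie at up to 2 mismatches, kept unique reads, removed PCR duplicates with Picard, counted with HTSeq and tested with DESeq2. The submitters' processing notes name mm10, STAR 2.7 and bcl2fastq 1.8.4 instead, and the labels name a stranded kit where the methods name another, so the build and the use of strand are uncertain. The deposited signal values are read counts scaled by the authors with a size factor for each library, and 100% were whole multiples of the value of 1 read within 0.006. Positions and promoters were taken by symbol from RefSeq on GRCm38.p6, which holds 84.5% of the symbols tested.

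After adding a pseudocount of 1, log2 values entered limma 3.58.1 (trend) in R 4.3.3, with 1 model of the 4 groups, 2-sided tests and Benjamini-Hochberg adjustment over all 15419 genes of each contrast. Standard errors and 95% intervals are those of limma. Fold changes are on the log2(value + 1) scale. Alternatives were pseudocounts of 0.1 and 5, every gene above 0 or a mean of at least 100, equal totals or upper quartiles, edgeR 4.0.16 and DESeq2 1.42.0 on recovered whole reads, the 4 libraries of a contrast alone, a term for the replicate number, and each library left out. The fit was tested on simulated data. Besides the members, genes are named if called between genotypes in the lists on extracellular nucleotides, adenosine, folate and the DPP4 family, or if among the 3 most like each member, with the markers of other cells that differed, of which 1 is not reported here. Members and lists were chosen with earlier results of these data known.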

Additional observations from a re-analysis of the deposited data

How the results depend on the processing

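With 2 libraries a group, calls moved with the setting more than sizes did, and the causes were not tested. In unstimulated cells the members called lower (2) were 0 with every gene above 0 and with the 4 libraries alone, and 1 with equal totals, equal upper quartiles or edgeR. Nt5e was called in 7 of 9 alternatives and Izumo1r in 4 of 9. In stimulated cells DESeq2 called 1 lower (0 with limma). With stimulation in WT, the 2 called lower were 0 with equal totals and 3 with a pseudocount of 5 or the 4 libraries alone, and the 1 called higher was 0 with every gene above 0 and 2 with equal totals or the 4 libraries alone. In DKO-labelled cells the 2 called lower were 1 with every gene above 0 0 with equal totals or the 4 libraries alone, and 3 with a pseudocount of 5, a mean of at least 100 or equal upper quartiles, and the 1 called higher was 2 with equal totals. The member gained as lower was Adora2a. Leaving out 1 library changed which members were called in each contrast. In unstimulated cells no member stayed called between genotypes without any 1 of the 4 WT libraries, stimulated ones included.

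Signs turned only near 0 or where replicates were far apart. The log2 fold change of Dpp4 in unstimulated cells was 0.072 with equal totals and 0.11 with equal upper quartiles, that of Adora2a in the interaction 0.41 with edgeR and 0.38 with DESeq2, and that of Entpd1 with stimulation in DKO-labelled cells 0.19 with equal totals. Leaving out 1 library gave ranges across 0 between the genotypes of -0.21 to 0.11 (Dpp4, unstimulated), -1.20 to 0.10 (Entpd1, unstimulated) and -0.17 to 0.55 (Dpp4, stimulated). For the interaction they were -1.85 to 1.43 (Adora2a), -0.40 to 0.31 (Nrp1) and -0.12 to 0.60 (Dpp4), and for stimulation -0.038 to 0.10 (Nt5e, WT) and -0.85 to 0.45 (Entpd1, DKO-labelled). Of the member values recomputed, 438 kept sign and call, 43 lost a call, 24 gained one and 17 changed sign.

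Over all genes, calls lower in unstimulated cells (517) ranged from 8 to 924 and higher (213) from 0 to 521. In stimulated cells they ranged from 0 to 551 lower (17) and 0 to 251 higher (25), for the interaction from 0 to 17 lower and 0 to 179 higher (0 each), for stimulation in WT from 580 to 2746 lower (2013) and 344 to 4258 higher (1580), and in DKO-labelled cells from 872 to 2442 lower (1855) and 880 to 3791 higher (1997). Equal totals moved the median of all genes by 0.12 in unstimulated genotype effects and -0.13 in the interaction, and equal upper quartiles by 0.16 and -0.15.

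Replicate numbers are shared by the stimulated groups and by the 2 DKO-labelled groups, and nothing in the labels says that they mark shared mice. Deviations of same-numbered libraries correlated at 0.17 and 0.26 over genes, from 2 pairs each. With the replicate number as a block, 43 genes were called lower and 45 higher in stimulated cells, and 3 members lower with stimulation in DKO-labelled cells, Adora2a (limma adjusted p = 0.0261) joining Dpp4 and Nrp1, and no other member call changed.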

Other observations

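Lists of resting and of effector Treg cell genes gave different counts between the genotypes. Of 12 genes of resting Treg cells, all tested, limma called 2 higher in unstimulated DKO-labelled libraries, Bach2 and Bcl2, and 0 lower, with a median log2 fold change of 0.73, and in stimulated ones 2 higher and 0 lower, with a median of 1.06. Over all genes 1.38% and 0.162% were called higher, with medians of -0.01 and 0.02. The medians of the 6 members, -0.79 and -0.67, had the opposite sign to those of the resting genes. With stimulation the medians of the resting genes were -1.52 in WT and -1.04 in DKO-labelled cells, while Izumo1r was called higher in both. Bcl2, which protects from apoptosis, had 3345 and 3254 normalized counts in unstimulated WT and 7569.7 and 6538 in DKO-labelled libraries (log2 fold change 1.09, limma adjusted p = 0.0142). Of 14 effector genes, 13 were called lower in unstimulated and 4 in stimulated DKO-labelled libraries, with medians of -2.95 and -1.73, where 3.35% and 0.11% of all genes were called lower. Il10, a suppressive cytokine, was at 885 and 923 against 50.3 and 56.1 (log2 fold change -4.06, limma adjusted p = 0.00106). Several of these effector genes, and Tcf7 and Klf2 of the resting list, were picked by the study from these libraries, so their direction is not independent evidence. The genes named here were chosen after their values were seen.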
